A study of Saccharomyces cerevisiae with 15 samples.

Results

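The cytoplasmic ribosomal protein genes of Saccharomyces cerevisiae were taken from the array's gene table as all symbols of the form RPL or RPS followed by a digit, together with the stalk genes RPP0, RPP1A, RPP1B, RPP2A and RPP2B. The rule used gene names only and gave 127 of 5449 measured genes, of which 70 encode proteins of the large subunit, 52 encode proteins of the small subunit and 5 encode the stalk. RNA from S288C MATα cultures was measured on 15 Affymetrix Yeast 2.0 arrays, with 3 biological replicates of each of 5 strains. The first strain was wild-type with a control plasmid and is called wild-type here. Another 3 strains were wild-type cells that kept their native GCN5 and also carried gcn5-F221A, a dominant and catalytically inactive allele, on a centromeric plasmid under mutant TEF promoters, whose relative strength was 0.32 or 0.68 or 0.95. The last strain was a gcn5 null with the control plasmid, which lacks the protein and not just its activity. All 5 strains carried a plasmid, were selected with 200 µg/mL G418 in minimal glucose medium, and were harvested at an optical density of 0.4 to 0.5. The comparisons ask how the ribosomal protein genes respond when Gcn5p activity is graded down or when the protein is removed.

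Gcn5p is the acetyltransferase of the SAGA coactivator complex and modifies histone H3 at promoters. Ribosomal protein genes are among the most heavily transcribed genes of growing yeast, and their promoters are bound by Rap1p, Fhl1p and Ifh1p under the control of nutrient signalling. Most of them are kept as a pair of paralogs, named A and B, whose proteins are nearly identical, so that the members of a pair can be compared within the same cells. Ribosome biogenesis genes encode the factors that assemble ribosomes and are usually regulated together with ribosomal protein genes.

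The values are log2 signals, so a difference of 1 is a doubling. GCN5 was checked first, on a probe set that detects both the native and the plasmid copy. Its log2 signal was 8.97, 8.93 and 8.86 on the wild-type arrays, 5.73, 5.83 and 5.76 in the null strain, and 13.20, 13.11 and 13.08 at strength 0.95. No array went against its label. The 4 α-specific marker genes MF(ALPHA)1, MF(ALPHA)2, STE3 and SAG1 were above background in every strain and all lower in the null strain, where MF(ALPHA)2 stood at 7.81 against 12.71 in wild-type. The 5 a-specific genes, which MATα cells should not use, had wild-type means between 6.42 and 8.40, above the 95th percentile of 5.20 for the S. pombe probe sets that serve as background. The medians of the 15 arrays lay within 0.07 of each other.

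Ribosomal protein genes were read close to the upper end of the array's scale. Their mean signal over the 15 arrays had a median of 14.16 and quartiles of 13.86 and 14.35, while the highest signal of any probe set was between 14.68 and 14.89 on each array. Probe sets bind with unequal efficiency, so these signals do not rank the transcripts. The highest means were those of RPS15 (14.64), RPL10 (14.64) and RPS21B (14.62). The lowest were those of RPL41A (7.76), which encodes a very short protein of the large subunit, RPL15B (11.86) and RPS28B (12.02). Of the 127 genes, 125 had a mean above 12. How far differences are compressed this close to the upper end was not tested. Of the genes outside the family, 51 had a mean above the family's lower quartile, and 15 of these 51 (29.4%) passed the test in the null strain, where their median absolute difference was 0.10.

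Replicates agreed closely. The median SD of a ribosomal protein gene among the 3 arrays of a strain was 0.04 for wild-type, 0.95 and null arrays and 0.07 for 0.32 and 0.68 arrays. Over all genes tested the median SD ranged from 0.08 in the null strain to 0.18 at 0.68. The 95% interval of a difference between strains reached a median of 0.15 to either side for the family and 0.27 for all genes.

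Nearly all ribosomal protein genes stayed near their wild-type signal in the gcn5 null strain. In the null strain 4 of the 127 genes were lower than in wild-type and 0 were higher (limma, adjusted p under 0.05), which is 3.15% of the family, whereas 41.0% of all genes tested were called, 22.6% lower and 18.4% higher. At an unadjusted p under 0.05 the family's count was 8, and that of all 5449 genes was 2687. The adjusted count ranged from 2 to 13 over the alternatives, for which the shares of all genes are not given here. The median difference was -0.03 on the log2 scale, against -0.01 for all genes, and the median absolute difference was 0.05, against 0.27. Differences ran from -0.34 to 0.60, and 120 of the 127 were smaller than 0.25 in size. None exceeded 1, a size that 271 of the 5449 genes passed. For 119 of the 127 genes the whole 95% interval lay within 0.5 of zero, whereas this held for 2265 of all 5449 genes.

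**Figure D1:**
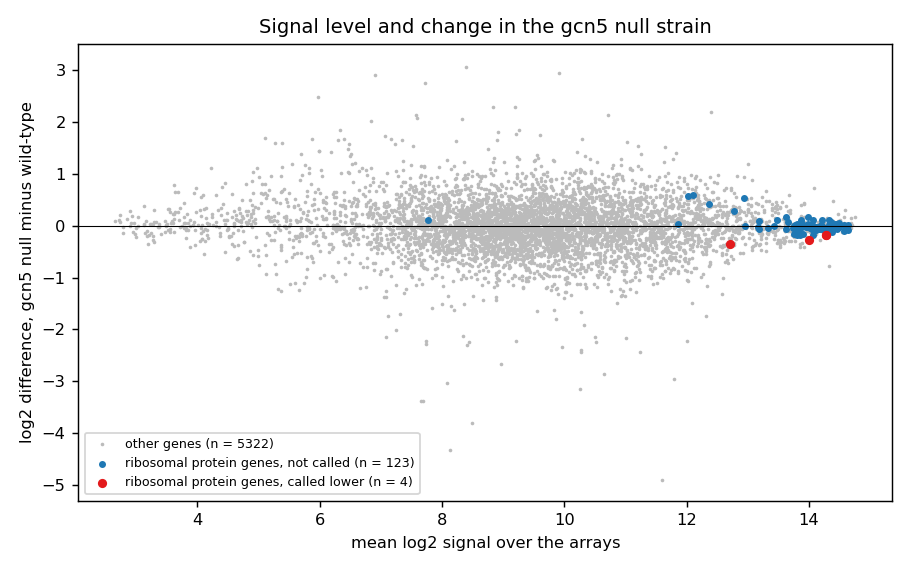
Each point is a gene, with its mean log2 signal over the 15 arrays on the x axis and its log2 difference between the gcn5 null and wild-type strains on the y axis. The 127 ribosomal protein genes (blue, and red for the 4 called lower) crowd at the right near zero, with a median difference of -0.03, while other genes (grey) spread over several log2 units.

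The 8 genes whose interval reached beyond 0.5 in the null strain were RPL13A, RPL22B, RPL5, RPL9B, RPS0B, RPS1A, RPS28B and RPS9A, named for this property after their values were seen. RPL22B is the only one of them that was called. For RPS1A the interval ran from -0.35 to 1.54, which holds both zero and a rise of more than 1.

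The subunits did not stand apart by their counts. Among large subunit genes 2 of 70 were called lower in the null strain, with a median difference of -0.03, and among small subunit genes 2 of 52, also with a median of -0.03. None of the 5 stalk genes was called, and their differences ran from -0.07 for RPP1B to 0.16 for RPP0. The stalk recruits elongation factors to the ribosome, and RPP0 is its base.

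Graded expression of gcn5-F221A moved no ribosomal protein gene past the threshold. The number called was 0 of 127 at strength 0.32, where 1.6% of all genes were called, 0 of 127 at 0.68, where 12.4% were, and 0 of 127 at 0.95, where 12.5% were. The slope over strength, with wild-type set to 0, was called for 0 of 127, against 15.7% of all genes. At an unadjusted p under 0.05 the limma counts were 0, 3, 0 and 1 in the same order. Among all 5449 genes they were 616, 1600, 1455 and 1682. The family's median differences were 0.01, -0.03 and -0.01 at the 3 strengths. With array weights 4 genes of the family passed for the slope, and 1 gene passed at 0.68, where the shares of all genes are not given here. At 0.95 the median absolute difference was 0.02, and for 121 of the 127 genes the interval lay within 0.5 of zero.

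Single arrays gave the same picture at finer grain. In the null strain all 3 arrays lay below all 3 wild-type arrays for 28 genes of the family and above them for 8, while 62.9% of all genes did not overlap and 33.4% did so on the lower side. At 0.68 the corresponding counts were 16 and 0, with 28.0% of all genes not overlapping and 15.9% lower. At 0.95 they were 10 and 0, against 38.8% and 18.3%, and at 0.32 they were 4 and 6, against 17.0% and 7.21%. In each of these comparisons the share of the family without overlap was below that among all genes. Bulk cultures cannot tell fewer cells that express a gene from less RNA per cell. Quantile normalization gives the probe intensities of every array the same distribution, so a shift of all transcripts together would not be seen. The family makes up 70 of the 100 brightest genes, so a shift of the whole family could also be reduced. By how much was not tested.

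Ribosome biogenesis genes behaved differently in the same RNA. Of 61 measured, 52 were lower in the null strain and 0 were higher, with a median difference of -0.68. At 0.68, 19 were lower and 0 higher with a median of -0.40, and at 0.95, 8 were lower and 0 higher with a median of -0.18. Of all 5449 genes tested, 1229 were called lower in the null strain, 384 at 0.68 and 285 at 0.95. The mean log2 signal of these 61 genes was 11.56, 11.65 and 11.58 on the wild-type arrays and 10.89, 10.85 and 10.91 in the null strain. On the same arrays the mean over the 127 ribosomal protein genes was 13.98, 14.00 and 14.00 in wild-type and 13.98, 13.96 and 14.01 in the null strain. The biogenesis means thus separated the null from the wild-type arrays, while the ribosomal protein means overlapped. With gcn5-F221A the biogenesis means were 11.65, 10.99 and 10.91 at 0.68 and 11.33, 11.47 and 11.57 at 0.95, so that replicate 1 of 0.68 and replicate 3 of 0.95 lay within the wild-type range. The biogenesis genes have mean signals from 8.88 to 13.85 and so lie lower on the array's scale, and the part of this in the contrast between the groups was not tested.

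**Figure D2:**
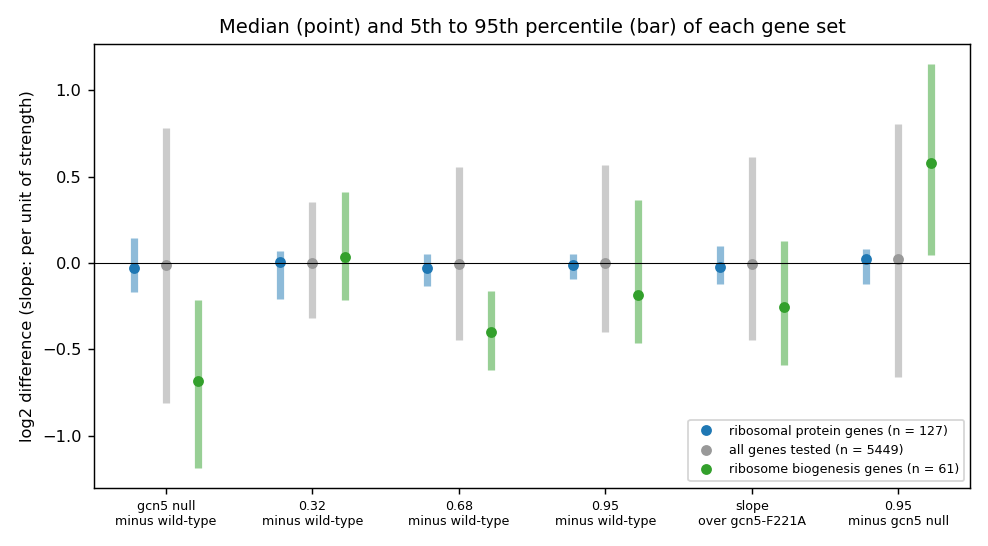
For each comparison the points give the median log2 difference and the bars the 5th to 95th percentile over the 127 ribosomal protein genes (blue), all 5449 genes tested (grey) and 61 ribosome biogenesis genes (green); for the slope the unit is log2 per unit of promoter strength. The family's median stays within 0.03 of zero in all 6 comparisons while the biogenesis median reaches -0.68 in the null strain.

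RPL22B had the lowest difference of the family in the null strain. It encodes a protein of the large subunit (YFL034C-A, chromosome VI from 64243 to 64932 of assembly R64). Its log2 signal was 12.88, 12.77 and 12.79 on the wild-type arrays and 12.46, 12.46 and 12.49 in the null strain. The null arrays agreed within 0.03 and lay below every wild-type array. The difference was -0.34 ± 0.08 (SE, n = 3 arrays per strain, limma adjusted p = 0.0042), which is a change of -21.3% on the linear scale. At strength 0.68 the arrays read 12.65, 12.63 and 12.46 and were also all below wild-type, with a difference of -0.23 that did not pass (limma adjusted p = 0.0715) but did pass without replicate 1 of 0.68 or without replicate 3 of 0.32. At 0.32 they read 12.89, 12.76 and 13.04 and at 0.95 12.82, 12.76 and 12.74, both overlapping wild-type. The slope over promoter strength was -0.15 in the fit reported (limma adjusted p = 0.218) and -0.14 with array weights, where it was called (limma adjusted p = 0.0482). Strength 0.95 was above the null strain by 0.31 (limma adjusted p = 0.00997).

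RPS27A, which encodes a small subunit protein (YKL156W, chromosome XI from 158613 to 159212), read 14.15, 14.06 and 14.07 in wild-type and 13.75, 13.79 and 13.88 in the null strain. The groups did not overlap, and the difference was -0.28 ± 0.08 (SE, n = 3 arrays per strain, limma adjusted p = 0.0101), a change of -17.9%. RPS27A followed the mean 5′ minus 3′ signal of each array's controls at r = -0.93 within strains, and with that mean as a covariate its difference was -0.16 (limma adjusted p = 0.0483). At 0.95 the arrays read 14.16, 14.00 and 13.97, which overlaps wild-type and lies above the null strain by 0.23 (limma adjusted p = 0.0331), a call that was lost without replicate 1 or 2 of either strain. These were the 2 family members called higher at 0.95 than in the null strain, with 0 lower, where 33.1% of all genes were called and 19.5% were called higher.

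A smaller call was that of a large subunit gene. RPL23A (YBL087C, chromosome II from 59822 to 60739) read 14.41, 14.33 and 14.32 in wild-type and 14.16, 14.19 and 14.19 in the null strain. Its difference was -0.17 ± 0.06 (SE, n = 3 arrays per strain, limma adjusted p = 0.0447). The groups did not overlap, and the change on the linear scale was -11.2%. The call was lost when any single wild-type array or any single null array was left out, and also without replicate 1 of 0.32 or replicate 2 or 3 of 0.95, whereas RPL22B and RPS27A were called without each of these arrays.

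**Figure D3:**
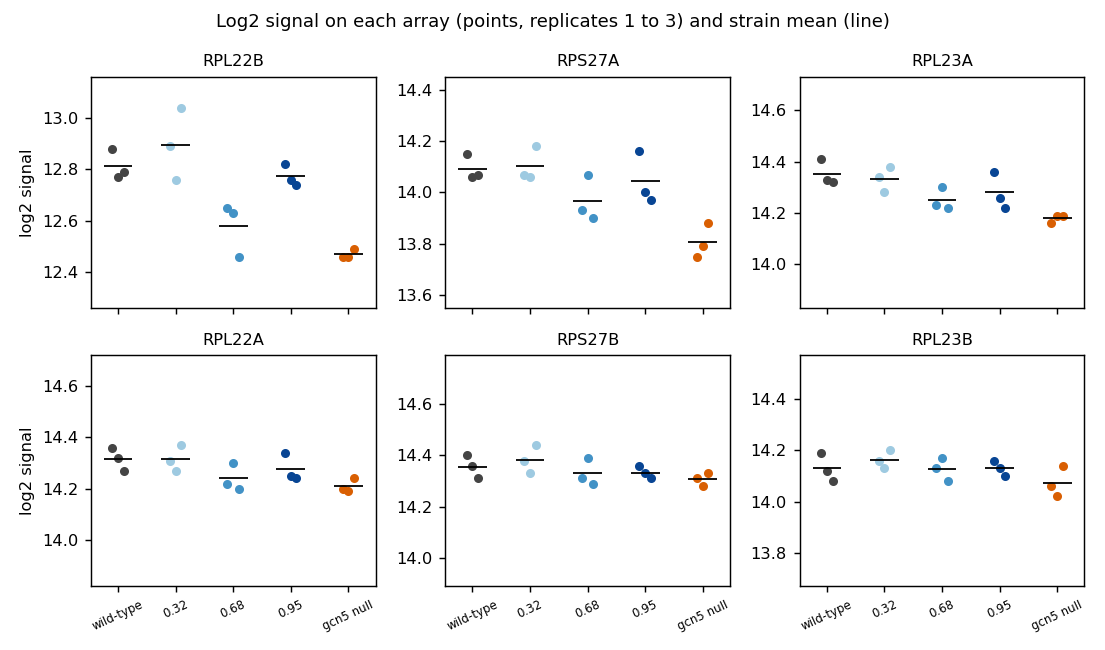
Log2 signal of RPL22B, RPS27A and RPL23A (top) and of their paralogs RPL22A, RPS27B and RPL23B (bottom) on each of 15 arrays (points) by strain, with the strain mean as a line and the same span of 0.9 on every y axis. The null arrays of the 3 genes in the top row lie below all wild-type arrays, and the strength 0.95 arrays of RPL22B and RPS27A overlap wild-type.

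The members of a pair differed little in their change. Both members were measured for 50 pairs, and the A minus B difference on each array was fitted beside the genes. In the null strain the change of A minus the change of B had a median size of 0.06 over the 50 pairs, with 34 pairs under 0.1 and 7 over 0.2, and it ran from -0.61 to 0.48. The single genes of the family had a median size of 0.05, so small differences within pairs do not show that paralogs moved together. The fit called 2 of the 50 pairs (4.0%), with p-values adjusted over genes and pairs together. At 0.32, at 0.68, at 0.95 and for the slope 0 of 50 pairs were called (0.0%), and 2 of 50 (4.0%) at 0.95 against the null strain. Of the pairs, 13 include a probe set of a type that can bind several transcripts, such as both paralogs. Their median size was 0.03, and that of the other 37 was 0.06. The part of shared binding in this was not tested.

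The called pairs were RPL22 and RPS27. For RPL22 the A minus B signal was 1.48, 1.55 and 1.48 in wild-type and 1.74, 1.73 and 1.75 in the null strain. RPL22A itself (YLR061W, chromosome XII from 263194 to 263948) changed by -0.11 (limma adjusted p = 0.184), so the widening of the pair by 0.24 (95% interval 0.09 to 0.38, limma adjusted p = 0.0133) lay mostly in RPL22B. At 0.95 the values were 1.52, 1.48 and 1.49 and overlapped wild-type. Against the null strain the pair at 0.95 was narrower, by -0.24 (limma adjusted p = 0.0144). At 0.68 the values were 1.56, 1.67 and 1.74, all above wild-type, with an uncalled difference of 0.16 (limma adjusted p = 0.137).

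For RPS27 the A minus B signal was -0.25, -0.30 and -0.24 in wild-type and -0.56, -0.49 and -0.45 in the null strain. The shift was -0.24 (95% interval -0.37 to -0.10, limma adjusted p = 0.00918), and RPS27B (YHR021C, chromosome VIII from 147871 to 148669) differed by -0.05 (limma adjusted p = 0.557). At 0.95 the values were -0.20, -0.33 and -0.34, higher than in the null strain by 0.21 (limma adjusted p = 0.0215). In both pairs the called paralog was 1 of the 4 genes called in the null strain, and its partner did not pass in the fit reported. With array weights RPL22A was also called lower in the null strain, by -0.11 (limma adjusted p = 0.033).

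**Figure D4:**
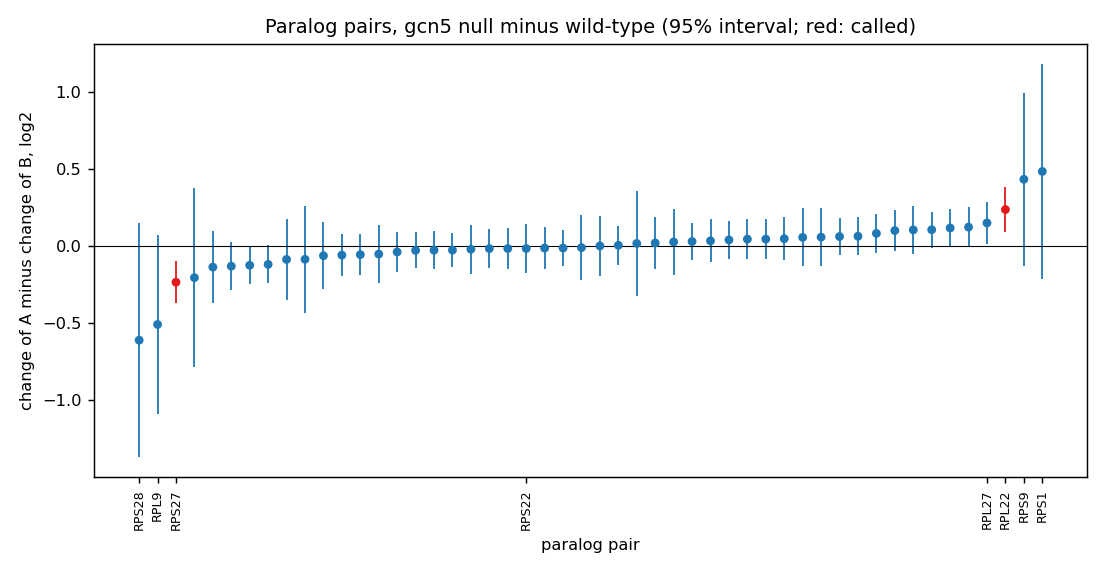
Each point is the log2 change of the A gene minus that of the B gene between the gcn5 null and wild-type strains, with its 95% interval, for 50 paralog pairs in order of size, with the pairs spoken of here labelled. RPS27 and RPL22 (red) were called, while RPS28, RPL9, RPS9 and RPS1 have differences as large or larger with intervals that include zero.

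Further pairs came near the threshold. RPL27 had an A minus B shift of 0.15 in the null strain (limma adjusted p = 0.0738), where RPL27B read 13.67, 13.72 and 13.83 against 13.93, 13.85 and 13.95 in wild-type. RPS22 had its lowest adjusted p at 0.68, where A minus B read 0.75, 0.69 and 0.83 against 0.46, 0.55 and 0.60 in wild-type. The groups did not overlap and the shift was 0.22 (95% interval 0.06 to 0.38, limma adjusted p = 0.0647). In the null strain RPS22 returned to 0.53, 0.48 and 0.55, within the wild-type range.

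Some paralogs varied among arrays of the same strain far more than the rest of the family. The largest SD was that of RPS9A at 0.32 (0.93), followed by RPS1A at 0.95 (0.79). RPS1A and RPS9A encode small subunit proteins (YLR441C, chromosome XII from 1018141 to 1018908, and YPL081W, chromosome XVI from 404950 to 406044). RPS1A read 11.26, 12.14 and 12.38 in wild-type and 12.74, 12.43 and 12.39 in the null strain, which overlap. With gcn5-F221A it read 12.07, 11.94 and 11.17 for strength 0.32, 12.80, 11.40 and 12.58 for 0.68, and 11.23, 12.23 and 12.80 for 0.95. RPS9A read 11.97, 12.43 and 12.49 in wild-type and 12.51, 12.41 and 10.85 at 0.32. Its paralog RPS9B had means of 14.10 and 13.94 in those strains. The same arrays were low in both genes, namely replicate 1 of wild-type, replicate 3 of 0.32, replicate 2 of 0.68 and replicate 1 of 0.95.

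These swings went with the signal of control probe sets. The arrays carry probe sets for the 5′ and 3′ ends of 7 control genes, and the mean of 5′ minus 3′ signal was -2.43 ± 0.27 (SD, n = 3) for null arrays, compared with -3.08 ± 0.24 for wild-type arrays. The arrays of the gcn5-F221A strains had -3.23 ± 0.44 for 0.32, -2.55 ± 0.54 for 0.68 and -2.76 ± 0.37 for 0.95. After strain means were removed, the deviation of RPS1A correlated with that of the 5′ minus 3′ signal over the 15 arrays at Pearson's r = 0.92 (permutation p = 0.000643, adjusted over all genes 0.0105) and Spearman's rho = 0.89 (permutation p = 0.000772, adjusted over all genes 0.0173). Without the 2 arrays whose 5′ minus 3′ signal lay farthest from its strain mean, r was 0.89. For RPS9A r was 0.81 (permutation p = 0.00566, adjusted over all genes 0.0243), rho was 0.76 (permutation p = 0.00656, adjusted over all genes 0.0334) and r without the 2 farthest arrays was 0.71. Strains were thus compared with their own mean only, and the p-values come from all 7776 reorderings of arrays within strains.

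The relation reached over much of the family. By the same permutation test, adjusted over 5449 genes, r passed for 82 of the 127 genes and for 31.2% of all genes. An r above 0.8 was found for 19 genes of the family and an r below -0.8 for 31, together 39.4% of the family against 21.3% of all genes. RPS28B, RPS0B and RPL9B, chosen after their values were seen, were like RPS1A, with r of 0.84, 0.94 and 0.93 and slopes of 0.94, 1.27 and 1.02 log2 per unit. Slopes ran from 0.20 to 1.43 for the 19 genes with r above 0.8 and from -0.31 to -0.06 for the 31 with r below -0.8. RPL37A had r of -0.96 and a slope of -0.15. Among genes called in the null strain, RPS27A had r of -0.93 (permutation p = 0.000514, adjusted over all genes 0.0103) and RPL23A -0.85 (permutation p = 0.000257, adjusted over all genes 0.00934). RPL22B had r of -0.67 and did not pass (permutation p = 0.0558, adjusted over all genes 0.13).

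**Figure D5:**
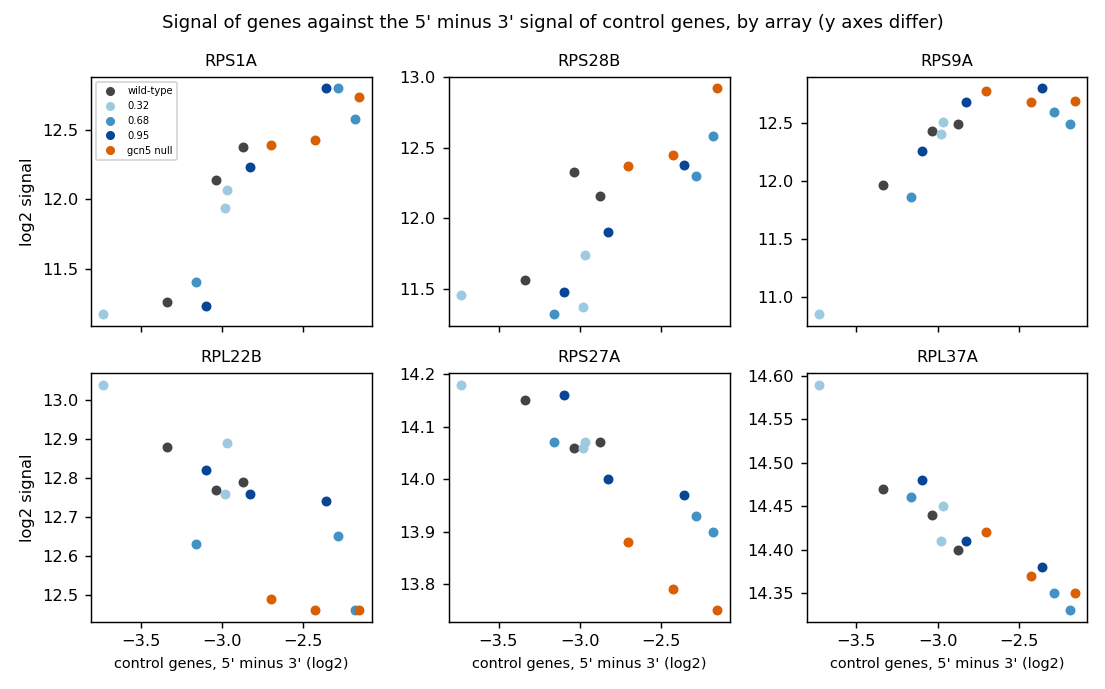
Log2 signal of 6 genes (y axes differ) on each of 15 arrays, colored by strain, against the mean 5′ minus 3′ log2 signal of 7 control genes on the same array. RPS1A, RPS28B and RPS9A climb by 1 log2 unit or more from left to right, RPS27A and RPL37A decline, and the RPL22B null arrays sit at the bottom of its panel.

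The null strain had the highest 5′ minus 3′ mean, so the measure moves with the comparison. With it as a covariate, a choice made after the data were seen, RPL22B stayed lower in the null strain at -0.25 (limma adjusted p = 0.0204) and RPS27A at -0.16 (limma adjusted p = 0.0483). RPL23A, at -0.10 (limma adjusted p = 0.195), was no longer called. The shifts of the RPL22 and RPS27 pairs were still called, at limma adjusted p of 0.0361 and 0.038. With the covariate 7 genes of the family were called in the null strain: besides RPL22B and RPS27A, these were RPL13A, RPS0B, RPS7B and RPS8B, all lower, and RPS14B, higher by 0.28 (limma adjusted p = 0.00655). The share of all genes called with the covariate is not given here. Whether the measure reflects RNA integrity, labelling or something else was not tested.

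Of the family, 20 genes had several probe sets, and the brightest was used. The null strain's difference varied between a gene's probe sets by a median of 0.05, and by under 0.1 for 16 of the 20. The exception in size was RPL18B, named after its values were seen, at -0.01 on the brightest probe set, of a type that can bind its paralog, and at -0.51 ± 0.25 on the gene's own dimmer one (SE, n = 3 arrays per strain, limma adjusted p = 0.115). RPS18B was likewise -0.04 on the brightest and -0.21 on its own probe set (limma adjusted p = 0.0114), so on its own probe set it was called lower.

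Among genes that act on the family, the share called in either direction in the null strain was below the 41.0% of all genes. Of 21 measured regulators of ribosomal protein genes, 6 were lower and 1 was higher. The share lower was above the 22.6% of all genes, and the share higher was below the 18.4%. Their median difference was -0.15 and their median size 0.29, against 0.27 for all genes. TOD6, a repressor of ribosome biogenesis genes, changed by -1.15 (limma adjusted p = 0.00128), and SCH9, a kinase that promotes ribosome production, by -0.68 (limma adjusted p = 0.00238). STB3, a repressor of the same programme, rose by 0.50 (limma adjusted p = 0.00358). RAP1, the DNA-binding activator of ribosomal protein promoters, read 9.92, 10.09 and 10.04 in wild-type, 9.80, 9.64 and 9.63 at 0.68, 9.45, 9.54 and 9.57 at 0.95 and 9.53, 9.56 and 9.48 in the null strain. It was therefore lower than every wild-type array at 0.68, at 0.95 and in the null strain, by -0.33, -0.50 and -0.49 (limma adjusted p = 0.021, 0.00151 and 0.000368), and its slope over strength was -0.54 (limma adjusted p = 0.000932). Another kinase, YAK1, which acts on the repressor branch, was lower at 0.95 by -0.64 (limma adjusted p = 0.00367). IFH1 (-0.59, limma adjusted p = 0.136) and FHL1 (-0.08, limma adjusted p = 0.739) did not pass in the null strain.

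Chaperones that escort new ribosomal proteins were lower in 4 of 12 cases in the null strain and higher in 0, with a median of -0.45, where 41.0% of all genes were called and 22.6% were lower. RRB1, the chaperone of Rpl3p, read 11.66, 11.68 and 11.63 in wild-type and 10.67, 10.62 and 10.55 in the null strain, a difference of -1.04 (limma adjusted p = 0.000236). SYO1, which imports Rpl5p and Rpl11p, changed by -0.78 (limma adjusted p = 0.00552), and ACL4, the chaperone of Rpl4p, by -0.76 (limma adjusted p = 0.000611). The share of these chaperones called lower was thus above that of all genes, and the share called in either direction below it. Of 17 translation factors 3 were lower and 1 was higher, each below the share among all genes, with a median of -0.04. Of these, ANB1, the hypoxic form of eIF5A, rose by 0.99 (limma adjusted p = 0.0067), and GCD11, a subunit of eIF2, changed by -0.38 (limma adjusted p = 0.0482). SUI1, which encodes eIF1, changed by -0.29 (limma adjusted p = 0.0191).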

How the data were processed

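The authors hybridised RNA from 15 cultures to Affymetrix Yeast 2.0 arrays and deposited log2 signals made by RMA, which corrects background, quantile-normalizes all probe sets and summarises each one. The values were used as deposited. Of 10928 probe sets, 5498 name an S. cerevisiae gene and were joined to RefSeq assembly R64, 1746 name a gene of S. pombe, and 3683 are unnamed. For each of 5449 genes the brightest probe set was kept. RefSeq holds 137 genes by the same name rule, and 10 were not analysed here. Of 59 pairs, 50 had both members measured.

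Linear models with a mean per strain used limma 3.58.1 under R 4.3.3, and p-values were adjusted by Benjamini-Hochberg over all genes (and pairs) at a threshold of 0.05. The p-values measure the spread between biological replicates, and 3 arrays per strain limit the precision. The procedure was tested on simulated data. Alternatives covered probe sets, normalization, variance models, the replicate block and each array left out. The covariate of 5′ minus 3′ control signal and a fit on probe sets specific to 1 gene were chosen after the data were seen. Correlations with that control signal were tested by exact permutation within strains (7776 reorderings) and adjusted over all genes. Named genes followed a rule of largest called differences, smallest pair p, extreme signal and largest spread, except that some genes and pairs the rule picked, larger differences than some named among them, are not reported here. The members, gene lists and rule were chosen with earlier results of these data known.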

Additional observations from a re-analysis of the deposited data

Results flagged for a closer look

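Probe sets for ribosomal RNA lie outside the comparisons of genes. Of 17 such probe sets, compared in 4 strains, 16 of 68 comparisons had all 3 arrays above every wild-type array, and this is what flagged them. These were 5 of 17 in the null strain, 6 at 0.32, 2 at 0.68 and 3 at 0.95, where 29.5%, 9.76%, 12.1% and 20.5% of all genes lay above every wild-type array, so that the count was near or below that share except at 0.32. On the probe set for the 3′ end of 25S rRNA the log2 signal was 11.20, 11.59 and 11.36 in wild-type and 13.15, 12.78 and 13.00 in the null strain, a difference of 1.59. An older probe set of 25S rRNA differed by 1.62 in the null strain and another by 0.31, and one of 18S rRNA by 0.70. The last of these 25S probe sets also differed by 0.43 at 0.32, 0.36 at 0.68 and 0.42 at 0.95. The 5.8S rRNA probe set was higher by 1.24 in the null strain, 0.77 at 0.32, 1.05 at 0.68 and 0.78 at 0.95. At 0.32, 18S rRNA probe sets differed by 0.36, 0.33 and 0.45. The probe set for the 5′ end of 25S rRNA differed by 0.26 at 0.32 and 0.19 at 0.95, and in the null strain it read 8.25, 8.39 and 8.98 against 8.96, 8.95 and 8.70, which overlap. No test was run on these values, and the RNA labelling behind them was not tested.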

How the results depend on the processing

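The count of ribosomal protein genes called in the null strain, 4 in the fit reported, was 2 after median centring, 2 after quantile normalization over S. cerevisiae genes, 11 with a variance trend and robust moderation, 13 with array weights, 7 with only the arrays compared and 7 with the 5′ minus 3′ covariate. Called pairs there, 2 as reported, were 8 with the trend, 9 with array weights and 6 with the covariate. At 0.68, where none was called, 1 gene was called with the trend, 1 with array weights and 1 with the covariate, and 1, 2 and 1 pairs with quantile normalization, the trend and the covariate. At 0.95 the covariate called 1 gene and 2 pairs, and array weights 3 pairs. For the slope, array weights called 4 genes and 3 pairs, and the covariate 1 gene and 2 pairs. For 0.95 against the null strain, 2 genes and 2 pairs as reported, median centring called 0 genes, quantile normalization 1 gene and 1 pair, array weights 10 genes and 5 pairs, and the covariate 4 pairs. The cause of these moves was not tested. The shares of all genes called under the same settings are not given here, so these counts cannot be set against the shares of the fit reported.

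No pairing of the arrays by replicate number was seen. With strain means removed, arrays of the same number correlated at a mean of -0.0696 and others at 0.0407, and 5 of 15 correlated best with their own number. Such correlations cannot show that arrays of the same number shared no batch. The replicate block called 2 genes in the null strain, 1 in 0.95 against the null strain, and the same number of pairs as without it. Leaving out each array in turn gave 2 to 5 genes in the null strain, 0 to 1 at 0.68 and 1 to 2 at 0.95 against the null strain, with 2 pairs throughout in the null strain, 0 to 1 at 0.68 and 1 to 2 at 0.95 against the null strain. In the null strain the count was 2 without any 1 of the wild-type or null arrays or replicate 2 of 0.95. RPL22B was called at 0.68 without replicate 1 of 0.68 or replicate 3 of 0.32, and its pair without the former. At 0.95 against the null strain RPS27A was lost without replicate 1 or 2 of either strain, and its pair without replicate 1 of 0.95 or replicate 1 or 2 of the null strain.

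Over 26 alternatives RPL22B and RPS27A were called lower in the null strain in 26 each, with the highest adjusted p at 0.0208 and 0.0483, and so were the shifts of both their pairs. Many of the alternatives, such as those on probe sets, left the estimates of these genes unchanged, so they are not 26 independent checks. RPL23A was called in 13, with adjusted p up to 0.195. Against the null strain at 0.95, RPL22B was called in 25 and RPS27A in 19. None of these 3 genes changed sign in the null strain. Signals near the top of the scale limit what small differences mean.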

Other observations

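Genes that respond to stress through Msn2p and Msn4p were higher in 9 of 30 cases in the null strain and lower in 0, with a median difference of 0.45, where 18.4% of all genes were called higher. Over the slope on strength 18 were higher and 1 lower, with a median of 1.03 log2 per unit. Of all 5449 genes tested, 457 were called higher for the slope and 396 lower. The family's medians were -0.03 and -0.02 in these comparisons.

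With the 5′ minus 3′ covariate, RPS0B was called lower at 0.68 by -0.51 (limma adjusted p = 0.0394), at 0.95 by -0.45 (limma adjusted p = 0.0471) and in the null strain by -0.54 (limma adjusted p = 0.0198). Without the covariate its null difference was 0.29 (limma adjusted p = 0.575). The direction for this gene therefore turned with the setting, which was chosen after the data were seen.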
